A study of Saccharomyces cerevisiae with 40 samples.

Results

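The a-specific mating genes of budding yeast, Saccharomyces cerevisiae, are the genes that a cells transcribe and that alpha cells and a/alpha diploids keep repressed. The set of 8 genes followed here was STE2, STE6, MFA1, MFA2, AGA2, BAR1, ASG7 and AFB1. They were taken by gene symbol and not by their values. Each was measured by 1 probe set, and they were 8 of the 5449 genes that could be matched on the arrays. None of the 8 lies on chromosome III, which carries the mating-type locus. The data went against the class for AFB1, whose transcript was highest on arrays where the other 7 were low. It is therefore given apart from them.

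Each haploid cell expresses either the a or the alpha allele of the mating-type locus MAT, and chromosome III also holds silent copies of both kinds, HML and HMR. The alpha allele encodes Mat-alpha2, which together with Mcm1 and the corepressor Tup1-Cyc8 shuts off a-specific genes, and Mat-alpha1, which switches on alpha-specific genes. Where both alleles are present, a1 and Mat-alpha2 also repress the haploid-specific genes of the mating pathway.

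The study grew yeast lines over many generations under a constant stress and measured their messenger RNA on 40 one-colour arrays in 16 groups, by poly(T)-primed labelling. All cultures had 18 generations of growth without stress and were taken at mid log phase, per the labels' protocols. The labels give no strain background, mating type or marker. They do not say for each array whether a replicate was a separate culture, so the p-values below measure the spread between these arrays, which may be technical.

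The diploid arrays numbered 23. The diploid ancestor itself had 2 arrays. Abrupt heat means 450 generations straight at 39 °C (4 arrays), gradual heat 450 generations while the temperature climbed from 30 °C to 39 °C (4 arrays), and the 30 °C line the same time at that temperature (2 arrays). A trisomic and a monosomic clone for chromosome III, both unevolved and each from a single clone, had 1 array each. H2 is a line that had been through abrupt heat. It was measured following 600 more generations at 30 °C (4 arrays) and following 1000 more at 39 °C in minimal medium (2 arrays). Descendants of the trisomic clone were measured following 1000 generations at 39 °C in minimal medium (2 arrays), with 1 array of the ancestor in that medium as their control. The haploid and spore arrays numbered 17. The haploid ancestor had 2 arrays. Its line at pH 8.6 had 1 array at 150 generations and 4 at 750 generations, 600 more, and a euploid and a disomic spore of that line had 1 each. The remaining 8 were spores of a line labelled evo39.

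Levels are the deposited log2 values, and they are set against a background level, the 95th percentile of the 1746 probe sets named for another species on the same array. That background lay between 4.23 and 5.36. Values that are identical to the last digit on different arrays split the 40 arrays into 9 normalization sets, and levels are compared within a set wherever it holds both groups. Levels of different genes are not compared with each other, since each probe set has its own response. MFA1 and MFA2 encode nearly the same peptide, and whether their probe sets keep the transcripts apart was not tested.

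The 7 genes other than AFB1 took either a high or a low level, and they did so on the same arrays. For each of the 7, the widest gap in the ordered 40 values separated the same 9 arrays from the other 31. The 9 were the array after 150 generations at pH 8.6, the 4 arrays after 750 generations, the euploid and the disomic spore of that line, haploid ancestor array 2 and evo39 spore 3. All 23 diploid arrays, haploid ancestor array 1 and the other 7 evo39 spores lay below the gap.

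**Figure D1:**
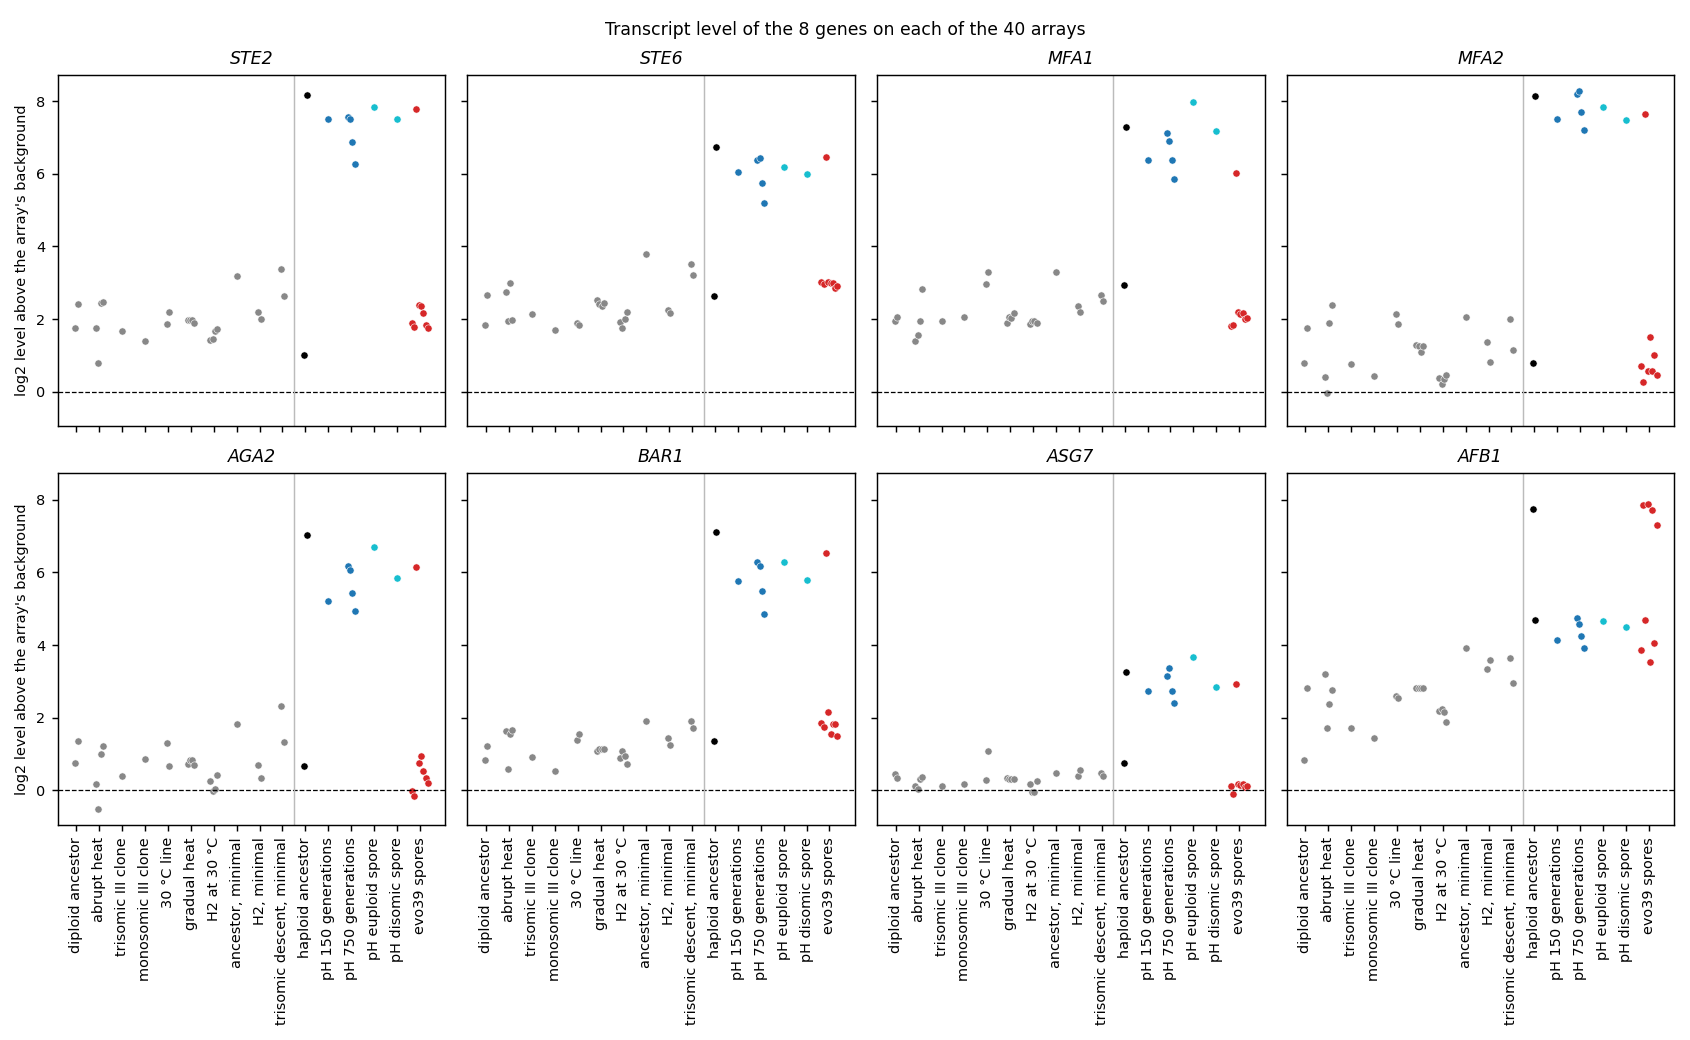
Level of each of the 8 genes above the array's own background (log2, vertical axis) in each of the 16 groups (horizontal axis), with 1 point per array, replicates in order from left to right, and the dashed line at the background. Grey points are the 23 diploid arrays and coloured or black points the 17 haploid and spore arrays. STE2, STE6, MFA1, MFA2, AGA2, BAR1 and ASG7 are high on the same 9 arrays, and AFB1 is highest on 5 others.

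STE2, the receptor for alpha-factor, stood at 6.26 or more above background on the 9 arrays and at 3.37 or less on the other 31. STE6, the transporter that exports a-factor, stood at 5.20 or more against 3.79 or less. The narrowest gap, 1.33, was that of ASG7, a regulator of pheromone signalling after mating, with 2.41 or more against 1.09 or less. High and low arrays were parted at each gene's own widest gap, so they could not overlap. The share of all genes that part the same 9 arrays was not counted.

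MFA1 and MFA2 encode precursors of a-factor, and MFA2 was the most sharply divided of the 7. It stood at 7.22 or more above background on the 9 arrays and at 2.38 or less on the rest, a gap of 4.84. MFA1 stood at 5.85 or more against 3.30 or less. AGA2, the adhesive subunit of a-agglutinin, stood at 4.93 or more against 2.31 or less, and BAR1, the secreted protease that degrades alpha-factor, at 4.87 or more against 2.15 or less.

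Most of the genes were measurable on most arrays. At least 5 of the 8 were above background on 40 of 40 arrays, so that count did not separate arrays. STE2, STE6, MFA1, BAR1 and AFB1 were above background on all 40 arrays, MFA2 on 39, ASG7 on 37 and AGA2 on 36. A level above background on the low arrays may be transcript or cross-hybridization, which was not tested.

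Over the 40 arrays, on values centred on each array's median, each of the 7 followed the mean of the others with a Pearson r between 0.966 for STE6 and 0.993 for STE2. AFB1 had an r of 0.19 with that mean. The arrays fall into separate clusters and the groups have unequal numbers of arrays, so these values describe the clusters and carry no p-value.

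The 2 haploid ancestor arrays, which carry the same label, showed opposite mating patterns. STE2 was 5.29 on array 1 and 13.19 on array 2. MFA2 was 5.07 on array 1 and 13.17 on array 2, and AGA2 4.94 and 12.04. On array 1 none of the 7 exceeded 2.93 above background, while on array 2 none was under 3.25.

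The alpha-specific genes ran the other way. STE3, the receptor for a-factor, was 11.05 on haploid ancestor array 1 and 7.83 on array 2. MF(ALPHA)1, the main alpha-factor gene, was 11.99 on array 1 and 5.16 on array 2. The probe set of HMRA1, whose sequence is shared by the silent HMR copy and an expressed MATa1, was 2.80 on array 1, below background, and 9.70 on array 2. HMLALPHA1, which stands likewise for MATalpha1 and its silent copy, was 10.33 on array 1 and 4.30 on array 2. Array 1 thus had the transcript pattern of alpha cells and array 2 that of a cells, and every comparison with the haploid ancestor depends on which array it rests on.

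The mean level of the 12 haploid-specific genes was high on both, at 5.16 above background on array 1 and 5.59 on array 2, against 1.35 to 1.95 on the 23 diploid arrays. Those genes include GPA1, the G protein alpha subunit, and FAR1, which arrests the cell cycle in response to pheromone.

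**Figure D2:**
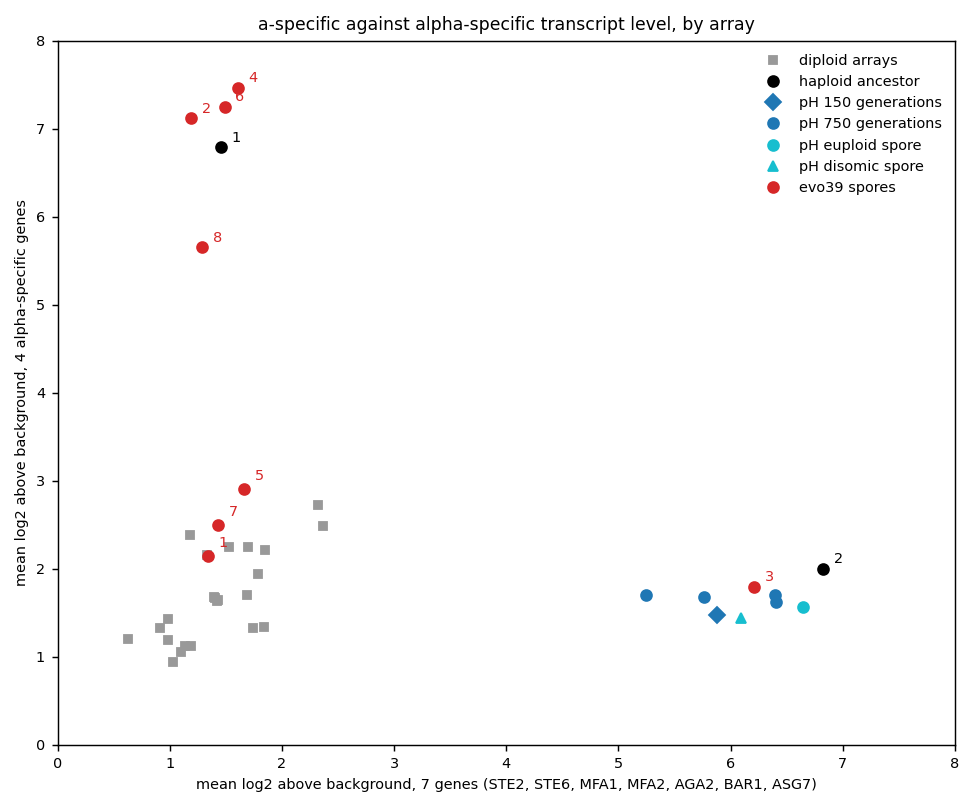
Mean log2 level above background of the 7 genes other than AFB1 (horizontal axis) against that of 4 alpha-specific genes (STE3, MF(ALPHA)1, MF(ALPHA)2 and SAG1, vertical axis), with 1 point per array. Numbers give the replicate of the haploid ancestor (black) and of the evo39 spores (red). Arrays lie either at the lower right (9 arrays, 5.25 to 6.82 on the horizontal axis), at the upper left (5 arrays, 5.65 to 7.47 on the vertical axis) or at the lower left with the diploid arrays.

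All 7 arrays of the line at high pH had the a-cell pattern. After 150 generations STE2 was 12.61, MFA2 12.62 and BAR1 10.87. After 750 generations STE2 was 11.80, 11.74, 11.10 and 10.52 in replicates 1 to 4. MFA2 was 12.43, 12.53, 11.93 and 11.47, and STE6 was 10.61, 10.66, 9.98 and 9.46. HMRA1 was well above background on all 7, at 4.30 to 4.92.

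The comparison of 750 generations with the haploid ancestor within a normalization set rests on ancestor array 1, the one with the alpha pattern. STE2 was 6.00 ± 1.76 (SE) higher in that fit on the log2 scale and MFA2 7.02 ± 2.10, and AFB1 was −3.40 ± 1.67. The members' median difference was 3.96, against 0.01 over all genes tested. None of the 8 passed limma's test (lowest adjusted p = 0.266), although 7 had an unadjusted p under 0.05. The fit called 8 of 5352 genes, 0.149%. The shared estimate of the spread took in the evo39 spores, which differ among themselves in these genes. A fit without those spores, added after seeing the data, called 1 member, MFA2 (adjusted p = 0.0239), against 18 genes in all, 0.338%. A fit with array weights called all 8 members, 7 higher and AFB1 lower, against 1543 genes in all, 28.8%.

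Against ancestor array 2, with no set term and each array centred, the members' median difference turned to −0.46 and STE2 was −0.81. The large positive differences were therefore those between an a-pattern and an alpha-pattern array. With ancestor array 1 as the only control in the same kind of fit, the median was 3.95.

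The 4 replicates after 750 generations were not alike for these genes. All 8 were lower in replicates 3 and 4 than the mean of replicates 1 and 2. The 7 genes other than AFB1 stood at 60.1% to 68.8% of that mean in replicate 3 and at 39.5% to 56.3% in replicate 4. BAR1 was the lowest, at 60.1% and 39.5%, and ASG7 the highest, at 68.8% and 56.3%. The replicates were normalized together, and the median difference over all 5352 genes was −0.0029 for replicate 3 and −0.0026 for replicate 4.

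The haploid-specific genes moved with them. All 12 were lower in both replicates, at 50.8% to 74.5% of the mean of replicates 1 and 2 in replicate 3 and at 32.6% to 62.5% in replicate 4. Of the 7 genes of a-factor processing, AXL1, which is also counted among the haploid-specific genes, differed by −0.74 and −1.32 on the log2 scale, and STE14, which methylates a-factor, stood at 72.7% and 69.3%. The other 5, RAM1, RAM2, RCE1, STE24 and STE23, lay between 87.5% and 101.5%. HMLALPHA1 was above background in replicates 3 and 4 (0.56 and 0.72) and below it in replicates 1 and 2 (−0.71 and −0.65). Of the alpha-specific genes, STE3, MF(ALPHA)2 and SAG1 lay between 83.2% and 99.5%. MF(ALPHA)1 went the other way, at 111.3% and 151.9%, but near the floor. It was below background in replicates 1, 2 and 3 and 0.29 above it in replicate 4. In a bulk culture, fewer cells of a type and less RNA per cell cannot be told apart. What part another cell type has in the lower levels was not tested.

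**Figure D3:**
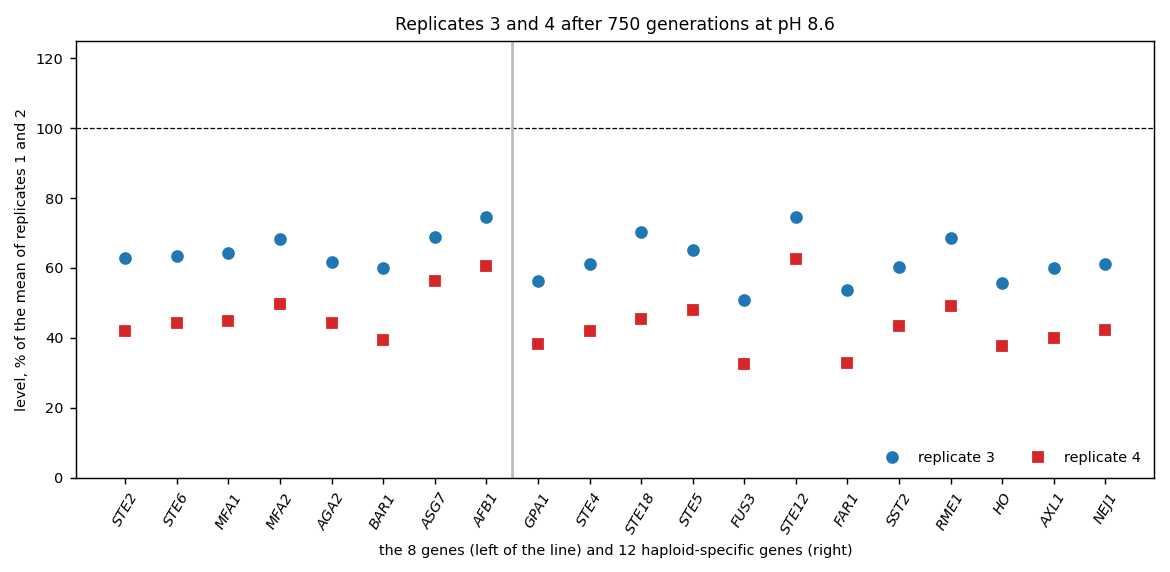
Level of each of the 8 genes (left of the line) and of 12 haploid-specific genes (right) in replicates 3 and 4 after 750 generations at pH 8.6, as a percentage of the mean log2 level of replicates 1 and 2 turned back to a linear scale (vertical axis). Every point lies below 100%, and replicate 4 lies below replicate 3 for every gene.

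The euploid and the disomic spore of the line at high pH both had the a-cell pattern. STE2 was 12.98 in the euploid and 12.65 in the disomic spore. MFA1 was 13.12 and 12.32, and BAR1 11.43 and 10.94. All 8 genes were lower in the disomic spore, from −0.13 for AFB1 to −0.83 for AGA2, with a median of −0.41 against −0.01 over all genes. None of the 8 passed the test (lowest adjusted p = 0.834, none with an unadjusted p under 0.05), while the fit called 342 of 5352 genes, 6.39%. Each spore had 1 array, and the spread came from the other groups. Those took in the evo39 spores, which differ among themselves in these genes, with an SD of 2.05 for STE2 and 2.07 for AGA2. With that spread the test could hardly detect differences of this size, so no conclusion is drawn from the lack of calls.

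The 8 evo39 spores fell into 3 kinds. Spore 3 had the a-cell pattern, with STE2 at 12.84, STE6 at 11.52, MFA2 at 12.69 and BAR1 at 11.58. It was close to haploid ancestor array 2 of the same normalization set, differing by −0.35 for STE2, −0.47 for MFA2 and, the widest, −1.24 for MFA1.

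Spores 2, 4, 6 and 8 had the alpha-cell pattern. Their STE2 levels were 6.79, 7.42, 7.24 and 6.82, and their MFA2 levels 5.27, 5.60, 5.65 and 5.54. STE3 was 11.64, 11.85, 11.73 and 10.90, and HMRA1 lay below background on all 4, between −1.69 and −1.40. Spore 8 had less of MF(ALPHA)2 and of SAG1, alpha-agglutinin, than the other 3, at 8.25 and 10.08.

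Spores 1, 5 and 7 had neither pattern. STE2 was 6.96, 7.44 and 6.94, and STE3 7.80, 8.06 and 7.84. Their 12 haploid-specific genes averaged 1.77 to 1.95 above background, within the diploid range, against 5.29 to 5.65 in spores 2, 4, 6 and 8 and 5.35 in spore 3. FAR1 lay below background in all 3, at −0.33, −0.02 and −0.59. HMRA1 was on, at 4.46 to 4.72 above background. MF(ALPHA)1 was 1.02, 3.14 and 1.84 above background in spores 1, 5 and 7, against 0.15 on ancestor array 2. The 4 alpha-specific genes averaged 2.15 to 2.90 above background in these spores and at most 2.73 on the diploid arrays. On the arrays with the alpha-cell pattern they averaged 5.65 or more. The levels of the 7 genes were thus low in these spores without the alpha-specific genes reaching their level in the alpha-cell pattern.

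Chromosome III set most of these spores apart as well. The median level of 148 genes of that chromosome, relative to their median over the 40 arrays, was 0.69, 0.70 and 0.69 in spores 1, 5 and 7. It was −0.13 in spore 3 and −0.10, −0.09 and −0.12 in spores 4, 6 and 8. Spore 2 had the alpha-cell pattern together with a chromosome III level of 0.71. A raised chromosome III level therefore occurred with the alpha pattern in 1 spore and with neither pattern in 3.

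The comparison of the spores with the haploid ancestor rests on ancestor array 2, which had the a-cell pattern. The spores entered it as a single group although they differed in mating pattern. Their SD was 2.05 for STE2 and 2.47 for MFA2. With that spread, a lack of calls says nothing about the spores of any one pattern. The members' median difference was −4.71, against −0.01 over all genes, and 7 of 8 were negative. None passed the test (lowest adjusted p = 0.200, 7 with an unadjusted p under 0.05). Limma called none of the 5352 genes, 0%, with 674 at an unadjusted p under 0.05. With ancestor array 1 as the only control, with no set term and each array centred, the median was 0.29.

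AFB1 followed the alpha-specific genes. Its level was 12.01 on haploid ancestor array 1 and 12.85, 12.94, 12.81 and 12.38 in spores 2, 4, 6 and 8. These were the 5 arrays above its widest gap, at 7.31 or more above background, against 4.74 or less on the other 35. STE3, MF(ALPHA)1 and HMLALPHA1 had their widest gap at the same 5 arrays. MF(ALPHA)2 and SAG1 had theirs at 4 of these, with spore 8 below the gap. In background knowledge, Afb1 is a secreted barrier protein against a-factor, made by alpha cells, and so the counterpart of Bar1.

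AFB1 was intermediate on the other haploid and spore arrays. On the 9 arrays with the a-cell pattern it was 8.17 to 9.78 and in spores 1, 5 and 7 8.63 to 9.15. On the diploid arrays it was 5.54 to 8.88. These levels overlapped, but they span several normalization sets. Above background they were 3.9172 to 4.7404, 3.543 to 4.052 and 0.84 to 3.9165. On that measure the 9 arrays and the diploid arrays met without overlapping, and spores 1, 5 and 7 overlapped both. Within the normalization set of the spores, AFB1 of spore 3 and of ancestor array 2 differed by 0.04, and spores 1, 5 and 7 differed from ancestor array 2 by −0.77, −1.08 and −0.57. Over the 40 arrays the genes most like AFB1 were STE3 with r = 0.94, TEC1 with 0.89, AGA1 with 0.88, SAG1 with 0.87 and FUS1 with 0.85. AGA1 encodes the anchor subunit to which the AGA2 product binds, and FUS1 acts in cell fusion.

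The comparison of the haploid with the diploid ancestor shares no normalization set, so set and ploidy cannot be told apart. On centred values all 8 members were positive, from 1.32 for ASG7 to 4.09 for AFB1, with a median of 2.65 against −0.06 over all genes. None passed the test (lowest adjusted p = 0.0513, for AFB1, and 5 with an unadjusted p under 0.05), while 100 of 5366 genes did, 1.86%. Of the 12 haploid-specific genes, 4 rose: GPA1, STE4, FAR1 and SST2, with SST2 by 3.12 ± 0.63 (SE; adjusted p = 0.00852). FAR1 was below background on both diploid ancestor arrays, so the size of its difference is not given. Of 13 pheromone-response genes 2 rose, FUS1 by 3.08 ± 0.62 (adjusted p = 0.00852) and PRM2 (adjusted p = 0.0211). PRM2 was below background on diploid ancestor array 1, so the size of its difference is not given. Without haploid ancestor array 1 the median was 5.15 and 6 members were called, against 137 genes in all, 2.55%. Without array 2 the median was 0.23 and only AFB1 was called, at 5.78 (adjusted p = 0.0225), against 55 genes, 1.02%. Without diploid ancestor array 2, AFB1 alone was called as well, at 4.87 (adjusted p = 0.0183), against 791 genes, 14.7%.

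On the diploid arrays the 7 genes were low throughout. STE2 ranged from 0.79 to 3.37 above background with a median of 1.97 over the 23 arrays, STE6 from 1.71 to 3.79 with a median of 2.19, and MFA2 from −0.05 to 2.38 with a median of 1.16. The highest values of STE2, STE6, AGA2 and BAR1 were on minimal medium. The 12 haploid-specific genes were low on the same arrays.

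The clones with an altered chromosome III allowed the repressed level to be compared across the copy number of the chromosome that holds the mating-type locus. Both shared a normalization set with ancestor array 1, abrupt-heat replicate 2 and the 4 H2 arrays kept at 30 °C. The chromosome III level was 0.48 in the trisomic clone, −0.45 in the monosomic clone and 0.02 on ancestor array 1. STE2 was 6.29 in the trisomic clone, 6.11 in the monosomic clone and 6.46 in the ancestor. MFA2 was 5.37, 5.15 and 5.49, and AGA2 5.01, 5.58 and 5.45. Neither clone stood apart from the ancestor by more than the H2 arrays did for these 3 genes.

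In the trisomic clone all 8 genes lay inside the range of the ancestor array and the 4 H2 arrays. In the monosomic clone 4 lay inside, 2 above (MFA1 and AGA2) and 2 below (STE6 and BAR1), none by more than the 0.13 of AGA2. From monosomic through ancestor to trisomic, 1 gene had ascending values, 2 had descending values and 5 had no such order. The shares of all genes inside or outside that range, or in each order, were not counted. None of the members passed the test in the trisomic clone (lowest adjusted p = 0.759, 2 with an unadjusted p under 0.05), where 24 of 5335 genes did, 0.45%. None passed in the monosomic clone either (none with an unadjusted p under 0.05), where 44 genes did, 0.825%. Their medians were −0.10 and −0.19, against 0.01 and 0.00 over all genes.

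**Figure D4:**
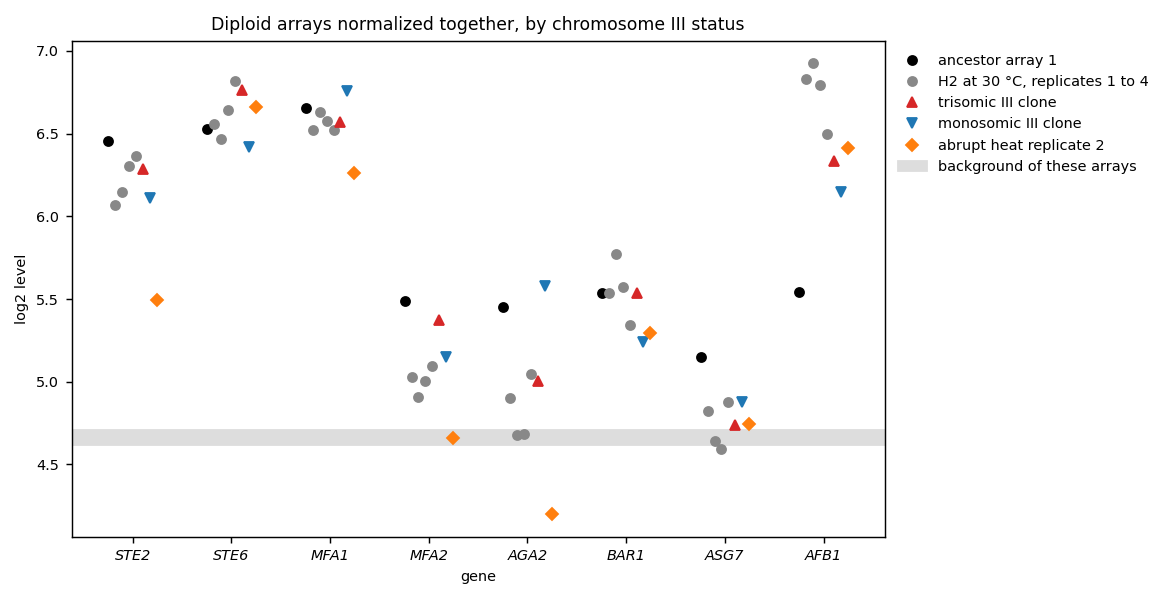
Log2 level of the 8 genes (horizontal axis) on the 8 arrays normalized together, with 1 point per array and the grey band at the background of these arrays. The trisomic clone lies within the ancestor and H2 arrays for all 8 genes, and abrupt-heat replicate 2 lies below them for 5.

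Set directly against each other, the trisomic and the monosomic clone had no member past the threshold (lowest adjusted p = 0.470, none with an unadjusted p under 0.05), with a median of 0.18. The fit called 197 genes, 3.69%. Among them were HMRA1, higher in the trisomic clone by 1.57 ± 0.33, and HMRA2, by 0.85 ± 0.16. Of the haploid-specific genes SST2 was higher, and STE4 and RME1, a repressor of meiosis, were lower, RME1 at −1.50 ± 0.24. STE14 was lower as well, at −1.07 ± 0.23. TUP1, which lies on chromosome III and whose product represses the a-specific genes, was higher by 0.86 ± 0.11 (adjusted p = 0.000346). Of 12 pheromone-response genes 4 were higher in the trisomic clone, namely PRM2 and the chromosome III genes FUS1, FIG2 and KAR4. What part gene copy has in these differences was not tested. FIG2 differed by 1.29 ± 0.25 (adjusted p = 0.00893) and KAR4, a transcription factor gene on chromosome III, by 1.10 ± 0.12 (adjusted p = 5.73e-05). FUS1 and PRM2 were below background in the monosomic clone, so the sizes of their differences are not given. Against the ancestor, KAR4 was lower in the monosomic clone, at −0.76 ± 0.12 (adjusted p = 0.0104). MCM1 was higher than the ancestor in both clones, by 0.88 ± 0.17 and 0.85 ± 0.17. Ancestor array 1, at 9.55 for MCM1, lay below all 7 other arrays of its set, which had 10.06 to 10.47.

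The monosomic clone had 1 copy of the chromosome by its label and yet the transcript pattern of an a/alpha diploid. HMRA1 was 2.95 above background and HMLALPHA1 0.83, and the 12 haploid-specific genes averaged 1.69. Of those 12, 8 were higher than in the diploid ancestor and 4 lower. Their median difference was 0.20, against −0.0013 over all genes. RME1 stood at 3.95 above background, the highest of the 23 diploid arrays. On the 5 arrays with the alpha-cell pattern HMRA1 lay below background, and on the 9 with the a-cell pattern the 7 genes averaged at least 5.25. The 7 genes averaged 1.03 in the monosomic clone.

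After abrupt heat the members were low as well. STE2 was 6.87, 5.50, 7.55 and 6.80 in replicates 1 to 4, of which replicate 2 alone shares a set with ancestor array 1. That replicate differed from the ancestor by −0.96 for STE2, −0.83 for MFA2 and −1.25 for AGA2. In it 5 of the 8 genes lay below the range of the ancestor and H2 arrays, and AGA2 and MFA2 were below background. The share of all genes below that range was not counted, so the 5 cannot be read as particular to these genes. None of the members passed the test (lowest adjusted p = 0.387, 4 with an unadjusted p under 0.05), against 16 genes in all, 0.3%. The median was −0.40 with the set term and 0.24 without it. TUP1 was higher by 0.71 ± 0.11 (adjusted p = 0.0222). With the set term this difference, like those of the members, is that of replicate 2 from ancestor array 1. The spread was shared over the diploid groups. The chromosome III level of the 4 replicates was 0.30 to 0.51.

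After gradual heat STE2 was 6.25, 6.25, 6.25 and 6.16, against 6.68 on ancestor array 2, the array of the same set. AGA2 was 5.00, 5.11, 5.11 and 4.97, against 5.63. Both were lower on all 4 arrays. AFB1 differed by at most 0.01 and ASG7 was identical on the ancestor and all 4 arrays at 4.59. No member passed the test with the spread shared over diploid groups (lowest adjusted p = 1, none with an unadjusted p under 0.05), where 4 genes did, 0.075%. In a fit of the compared groups alone, 446 of 5261 genes passed, 8.48%, among them 3 members: STE2 at −0.45 (adjusted p = 0.0217), MFA2 at −0.51 (adjusted p = 0.0435) and AGA2 at −0.58 (adjusted p = 0.0290). The 4 gradual-heat arrays lay close together, with STE2 identical to the last digit on 3 of them, and within their set the control was a single array.

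For the line kept at 30 °C no set holds both it and the ancestor, and the contrast runs through the abrupt-heat arrays. STE2 was 6.24 and 7.56, against 6.46 and 6.68 on the ancestor arrays. The median of the members was −0.47 with the set term and 0.75 without it, and none passed the test (lowest adjusted p = 0.678, 1 with an unadjusted p under 0.05), against 1 gene in all, 0.0187%. The direction for this line therefore depends on how the sets are treated.

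The H2 line kept at 30 °C was set against abrupt heat, from which it came. STE2 was 6.07, 6.15, 6.30 and 6.37, each above the 5.50 of abrupt-heat replicate 2 of the same set. MFA2 was 5.03, 4.91, 5.00 and 5.09, against 4.66. The median difference was 0.32, against 0.03 over all genes, and it turned to −0.51 without the set term. None passed the test (lowest adjusted p = 0.221, 1 with an unadjusted p under 0.05), against 95 genes in all, 1.78%. Against abrupt-heat replicate 2, on which the fit with the set term rests, TUP1 was lower, at −0.50 ± 0.09. The chromosome III level of the H2 arrays was −0.02 to 0.01.

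With equal array weights and the spread shared over the diploid groups, the comparisons in which members passed the test were those on minimal medium. With array weights, or in the fit of gradual heat alone, members passed elsewhere too. On minimal medium the ancestor had STE2 at 8.15, STE6 at 8.75, MFA1 at 8.25, MFA2 at 7.01, AGA2 at 6.79 and BAR1 at 6.87. In H2 after 1000 generations on that medium STE2 was 7.16 and 6.94, STE6 7.23 and 7.12, and AGA2 5.68 and 5.29. Both H2 arrays lay below the ancestor array for all members but ASG7.

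In H2, 5 of the 8 genes fell. STE6 fell by 1.58 ± 0.15 (SE; adjusted p = 1.65e-06) and AGA2 fell by 1.30 ± 0.35 (adjusted p = 0.00638). STE2 fell by 1.10 ± 0.27 (adjusted p = 0.00329), MFA1 was at −0.999 ± 0.18 (adjusted p = 0.000422) and BAR1 at −0.57 ± 0.15 (adjusted p = 0.00660). MFA2 was −0.96 ± 0.45 and missed the threshold (adjusted p = 0.0802), as did AFB1 at −0.45 and ASG7 at 0.01. The median was −0.98, against 0.03 over all genes. This background was high: 3092 of 5335 genes were called, 58%, and 27.3% were called lower.

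Other mating genes differed on the same arrays. In H2, FUS1 was at −1.96 ± 0.21, FIG2, a cell wall protein of mating cells, at −2.15 ± 0.22, and AGA1 at −1.39 ± 0.28, whereas PRM1, which acts in membrane fusion, was at 2.71 ± 0.17. PRM2 was 2.00 above background on the ancestor array and below background on both H2 arrays. In all, 4 of 12 pheromone-response genes tested fell and 1 rose, where 27.3% of all genes were called lower and 58% either way. Of the 4 alpha-specific genes 2 fell, STE3 at −0.71 ± 0.28 and SAG1 at −0.87 ± 0.19, and of 12 haploid-specific genes 4 fell (STE4, FAR1, SST2 and AXL1) and 2 rose (STE12 and RME1). FAR1 was near background on the ancestor array, at 4.99 against 4.96, and below background on both H2 arrays. HMLALPHA1 fell by 1.20 ± 0.32. Of 7 genes of a-factor processing 3 fell, RAM2, STE14 and AXL1. Of 7 regulators and silencing genes 3 rose, TUP1, CYC8 and SIR2, and SIR1 fell.

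**Figure D5:**
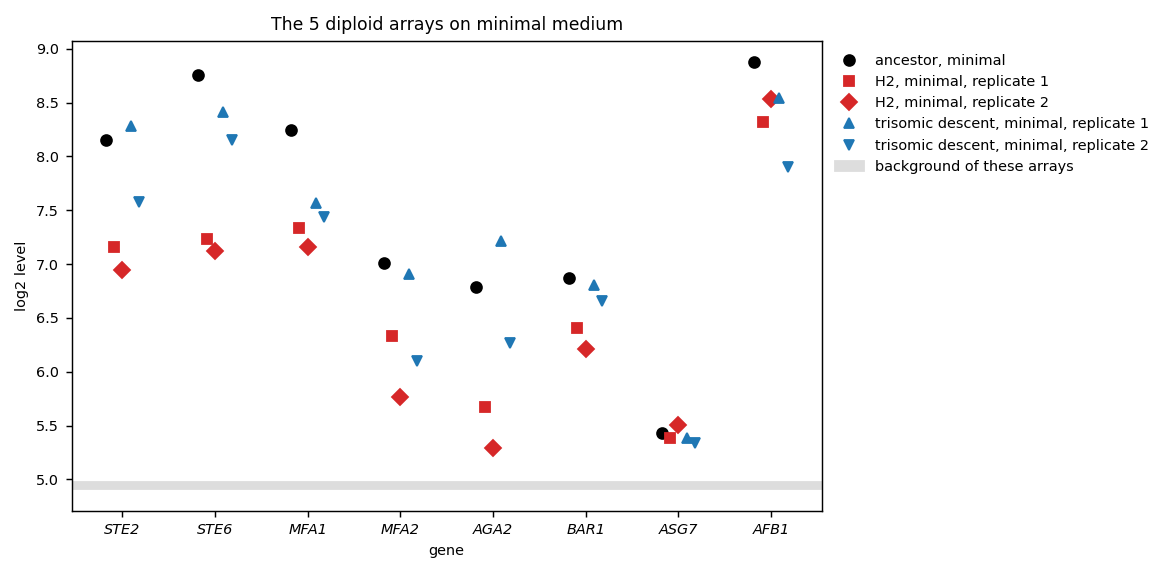
Log2 level of the 8 genes (horizontal axis) on the 5 arrays on minimal medium, with 1 point per array and the grey band at the background of these arrays. The H2 arrays lie below the ancestor for STE2, STE6, MFA1, MFA2, AGA2 and BAR1, and the descendants of the trisomic clone lie nearer to the ancestor for STE2, STE6, AGA2 and BAR1.

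The descendants of the trisomic clone on minimal medium differed less from the ancestor. STE6 was 8.42 and 8.15 and MFA1 7.57 and 7.44, and these 2 genes fell, with differences of −0.47 ± 0.15 (adjusted p = 0.0308) and −0.74 ± 0.18 (adjusted p = 0.00803). Without replicate 2 of this line STE6 was no longer called (adjusted p = 0.136), and in a fit of the compared groups alone neither was (adjusted p = 0.343 and 0.28). STE2 was 8.28 and 7.58, above and below the 8.15 of the ancestor. AGA2 was 7.22 and 6.26, likewise on both sides. All 8 differences were negative with a median of −0.34, against 0.01 over all genes, and the fit called 1804 genes, 33.8%, with 15.1% lower. Of the pheromone-response genes FUS1, FIG2 and PRM2 fell, and of the haploid-specific genes FAR1, which lay below background on both arrays of this line. MCM1 fell by 0.44 ± 0.14 (adjusted p = 0.0313). The chromosome III level of these arrays was −0.02 and −0.05, close to the −0.01 of the ancestor.

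Set directly against each other, H2 was lower than the descendants of the trisomic clone in 4 of the 8 genes. STE6 differed by −1.11 ± 0.12 (adjusted p = 1.29e-05) and AGA2 by −1.26 ± 0.29 (adjusted p = 0.00372). STE2 differed by −0.88 ± 0.22 (adjusted p = 0.00621) and BAR1 by −0.43 ± 0.13 (adjusted p = 0.0162). Over all genes 19.8% were lower in this direct comparison. The comparisons with the ancestor share 1 control array. All 5 arrays on this medium lie in 1 normalization set, so leaving out the set term left the differences as they were and changed the shared estimate of the spread. Without the term 1 member was called in H2, against 508 genes in all, 9.52%, and none in the descendants of the trisomic clone, against 38 genes, 0.712%.

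By likeness over the 40 arrays, the gene closest to the mean of the 8 members was YNL146C-A, a small open reading frame near MFA2, with r = 0.94. It was 1.49 to 2.64 above background on the 9 arrays with the a-cell pattern and below background on the other 31. The next were STE4 with r = 0.76, YMR206W and FUS3 with 0.74, GPA1 with 0.74, NEJ1 with 0.73, STE18 with 0.72 and NDJ1 with 0.71. Of these STE4, GPA1 and STE18 encode the G protein of the pheromone receptors and FUS3 its kinase, and NEJ1 acts in DNA end joining.

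With AFB1 left out of the mean, YNL146C-A had r = 0.96 and GYP8, the gene next to STE2, came after it with 0.71. The other neighbours of the 8 genes did not follow them as closely. GYP8 had r = 0.67 with STE2, and YNL146W, between YNL146C-A and MFA2, had r = −0.78 with MFA2. The remaining neighbours lay between −0.62 for TRX1 beside AFB1 and 0.22 for CBT1 beside STE6.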

How the data were processed

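Levels are the log2 values deposited by the authors, which were made with RMA (background correction, quantile normalization and probe summary) per the submitters' processing notes. Neither the version of RMA nor which arrays went into 1 normalization run is given in the sources used here. Scanner files were not used here, and the number of arrays limits the precision. The table held 10928 probe sets, of which 5498 matched 5449 genes by the platform annotation, and probe sets of 1 gene were averaged. Arrays sharing at least 0.1% of values to the last digit were joined into 9 normalization sets. Genes above background on at least 2 arrays of a fit entered limma 3.58.1 under R 4.3.3 (lmFit and eBayes with a trended prior), with group and normalization set as terms and Benjamini-Hochberg adjustment over all genes tested at a threshold of 0.05. One fit took the 23 diploid arrays (5335 genes, 9 residual degrees of freedom), another the 17 haploid and spore arrays (5352 genes, 10), and the last all 40 arrays centred on the array median (5366 genes, 24). The script recovered known changes in simulated data.

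The 8 members and the gene lists were chosen with earlier results of these data known. The text names the members, any listed gene that passes a test, further listed genes by level, and the 8 genes most correlated with the members' mean. Spores and ancestor arrays were not grouped by their measured pattern for any test. Replicate numbers in the labels were not taken as pairs, since nothing ties equal numbers to a shared culture or day. Alternatives covered the set term, centring, renormalization, filters, array weights, the samples in the fit and left-out arrays. Sequences of the genes were not used here.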

Additional observations from a re-analysis of the deposited data

Results flagged for a closer look

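Among the 8 evo39 spores, spore 3 lay far above the nearest of the others for 7 genes. It stood at 12.84 for STE2, 11.52 for STE6, 11.07 for MFA1, 12.69 for MFA2, 11.20 for AGA2, 11.58 for BAR1 and 7.97 for ASG7, and its gap to the next spore was 2.72 (ASG7) to 6.09 (MFA2) on the log2 scale. The 4 gradual-heat arrays were so close together that small gaps stood out. STE2 was lowest in replicate 4 at 6.16, MFA2 was lowest in replicate 3 at 5.38 and AFB1 was highest in replicate 1 at 7.09, with gaps of 0.09, 0.15 and 0.01. Of 40 groups of values examined 10 had such an array, where chance gives about 1 in 20 for independent groups. These groups were not independent, since spore 3 was counted once for each of 7 genes that move together. The count is therefore no measure of an excess over chance.

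On minimal medium H2 and the descendants of the trisomic clone differed in a direct test, with H2 lower at −0.88 for STE2, −1.11 for STE6, −1.26 for AGA2 and −0.43 for BAR1 on the log2 scale. These 4 genes were the members that passed this test, in which 19.8% of all genes were lower in H2. In each of them both H2 arrays lay below both arrays of the trisomic descent.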

How the results depend on the processing

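The count of members called was within 1.5 times that of the main fit in 147 of the settings tried and moved in 23, and none reversed. With array weights, where calls over all genes went up as well except in the trisomic descent, it was 2 in the trisomic clone (7.31% of all genes called), 1 in the monosomic clone (6.8%), 3 between these clones (23.5%), 4 after abrupt heat (6.2%), 2 for the 30 °C line (6.22%), 1 for H2 at 30 °C (9%), 1 for the trisomic descent on minimal medium (29.7%), 8 for 750 generations at high pH (28.8%) and 7 for the evo39 spores (14%). With only the groups compared it was 3 for gradual heat, 3 for H2 and 0 for the trisomic descent on minimal medium, and 1 for 750 generations at high pH. With no set term it was 1 for H2 and 0 for the trisomic descent on minimal medium and 1 for the evo39 spores, and with centred arrays and no set term 0 for the trisomic descent and 1 for the 30 °C line. Without the 8 evo39 spores it was 1 for 750 generations at high pH. Leaving out 1 array at a time gave 5 for H2 on minimal medium, 1 to 3 for the trisomic descent, 0 to 6 for the haploid against the diploid ancestor and 0 for the other comparisons where a fit could be had. The trisomic descent gave 1 without its replicate 2. The cause was not tested. With the replicate number as a block, H2 at 30 °C against abrupt heat again had 0 members called, with a median of 0.27, while calls over all genes went from 95 to 50. The members' median changed sign without the set term for abrupt heat (−0.40 to 0.24), the 30 °C line (−0.47 to 0.75) and H2 at 30 °C (0.32 to −0.51). Contrasts that rest on 1 shared array could not be fitted with the set term once that array was left out.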
